A study of Mus musculus with 32 samples.

Results

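The lipid droplet genes described here are Cidec, Cidea, Cideb, Plin1, Plin2, Plin4, Plin5, Pnpla2 and G0s2, which are 9 of the 27179 genes in a table of RNA pulled down with an antibody against N6-methyladenosine (m6A). They were chosen by name, around Cidec, after Cidec had been seen to be near absent in formalin-fixed, paraffin-embedded (FFPE) mouse liver and present in frozen mouse liver. All 9 names matched 1 row each. The comparison of FFPE with frozen liver in these genes is therefore a description with no test. The liver libraries do enter the later tests between organs.

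The study took brain, heart, kidney and liver from mice, and each organ was either flash frozen or fixed in 10% formalin and embedded in paraffin. Strain, age, sex and number of animals are not given in the labels, which also name no drug or transgene. RNA was sheared, pulled down and sequenced. The table holds 1 library for each of the 4 organs in each of the 2 preservations, so there are 8 libraries and no replicates within a group. The labels name 2 runs for each group, and the table does not say which of them a library comes from. With no input library analysed here, a level counts transcripts that the antibody brought down, and abundance and methylation cannot be told apart.

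Lipid droplets are the organelles in which cells store triacylglycerol and sterol esters under a single layer of phospholipid. Perilipins (the Plin genes) coat the droplet and control access of lipases, CIDE proteins (the Cide genes) act where droplets touch and let lipid pass from small droplets to large ones, and adipose triglyceride lipase (Pnpla2) starts the breakdown of the stored fat. Fasting, feeding and nuclear receptors of the PPAR family are known to alter the amount of many of these transcripts in liver, heart and kidney.

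Upstream sequence is shown first for 4 members: Cidec, on which the set was chosen, Plin2, and the neighbours Plin4 and Plin5, which lie 1648 bases apart on chromosome 17 and differed in their values below. RefSeq promoters (GRCm38.p6) were found for 8 of the 9 members, at 10 start sites, and each was searched on both strands over the 250 bases before the start. Each run below is written 5′ to 3′ on the minus strand, covers only bases outside the annotated gene, and has in capitals any match to AGGTCA (the half-site of nuclear receptors), TATAAA (a core promoter element), CCAAT (a site of the factor NF-Y), CACGTG (an E-box), GGGCGG (a GC box) or a direct repeat of AGGTCA.
Cidec, chr6:113435761-113436010: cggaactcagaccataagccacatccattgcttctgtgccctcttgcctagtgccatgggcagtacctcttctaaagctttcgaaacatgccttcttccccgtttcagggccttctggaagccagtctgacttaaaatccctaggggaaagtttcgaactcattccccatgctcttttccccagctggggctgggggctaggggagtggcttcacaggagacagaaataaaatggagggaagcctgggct
Plin2, chr4:86670218-86670309: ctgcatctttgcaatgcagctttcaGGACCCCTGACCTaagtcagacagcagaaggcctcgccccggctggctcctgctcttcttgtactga
Plin4, chr17:56109949-56110032: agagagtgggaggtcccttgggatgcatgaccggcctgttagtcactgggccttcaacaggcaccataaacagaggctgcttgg
Plin5, chr17:56117607-56117798: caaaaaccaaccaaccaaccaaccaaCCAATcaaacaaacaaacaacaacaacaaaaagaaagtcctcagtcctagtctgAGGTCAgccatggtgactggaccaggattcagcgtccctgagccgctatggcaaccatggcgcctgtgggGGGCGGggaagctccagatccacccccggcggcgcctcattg

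The Plin2 window held GGACCCCTGACCT, 225 bases before the start. On its opposite strand this run is 2 copies of AGGTCA with 1 base between them, the spacing that PPAR and RXR receptor pairs prefer, with 2 mismatches. Such a run was in 3.24% of 32851 promoters of the same length and in 1 of the 10 promoters of the members. AGGTCA alone, which the Plin2 run contains, was in 2 of the 10 promoters (Plin2 and Plin5) and in 14.0% of all promoters. GGGCGG was in 5 of the 10 (32.7% of all promoters), CCAAT in 3 (33.9%), TATAAA in 1 (12.4%) and CACGTG in 0 (6.02%). The Cidec window held none of these motifs. A match is a description of the sequence and was not tied to binding or to the values below.

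By total gene counts the shallowest library was FFPE brain (9603050) and the deepest frozen brain (21523379). Ribosomal genes made up 50.4% (FFPE brain) to 79.7% (frozen heart) of these counts. Outside ribosomal genes the shallowest library was FFPE liver, with 3050241 counts, and the deepest frozen brain, with 8004550. The level given by 3 counts ran from log2 -3.29 in frozen brain to -0.86 in FFPE liver. Levels are log2 of CPM (counts scaled to a common library size) with 0.5 added to each count, as the authors deposited them, and intervals are 95% and cover counting error only. All 8 hepatocyte markers were called higher in liver, all 7 cardiomyocyte markers in heart, all 7 nephron markers in kidney, and all 5 neuron and 6 glia markers in brain (limma, adjusted p under 0.05). The FFPE libraries stood apart in Xist, which had 2693 to 6685 counts in the 4 FFPE libraries and 5 to 26 in the 4 frozen ones. Y-linked Ddx3y, Uty, Eif2s3y and Kdm5d were counted in all 8. Each of these Y-linked genes had a lower level in FFPE than in frozen tissue in every organ. Ddx3y, for example, had 298 counts in frozen and 43 in FFPE liver. Preservation and a difference between the animals cannot be told apart in any comparison of FFPE with frozen tissue. The frozen heart library also held more neuronal RNA than the FFPE heart library, with 115 against 15 counts of Snap25.

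Of the 9 members, 7 had a log2 level above 0 in at least 2 libraries and were tested. Cidec passed in 1 library and Plin1 in 0, so both are described only. The plot of levels by organ shows all 9 members in the 8 libraries.

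**Figure D1:**
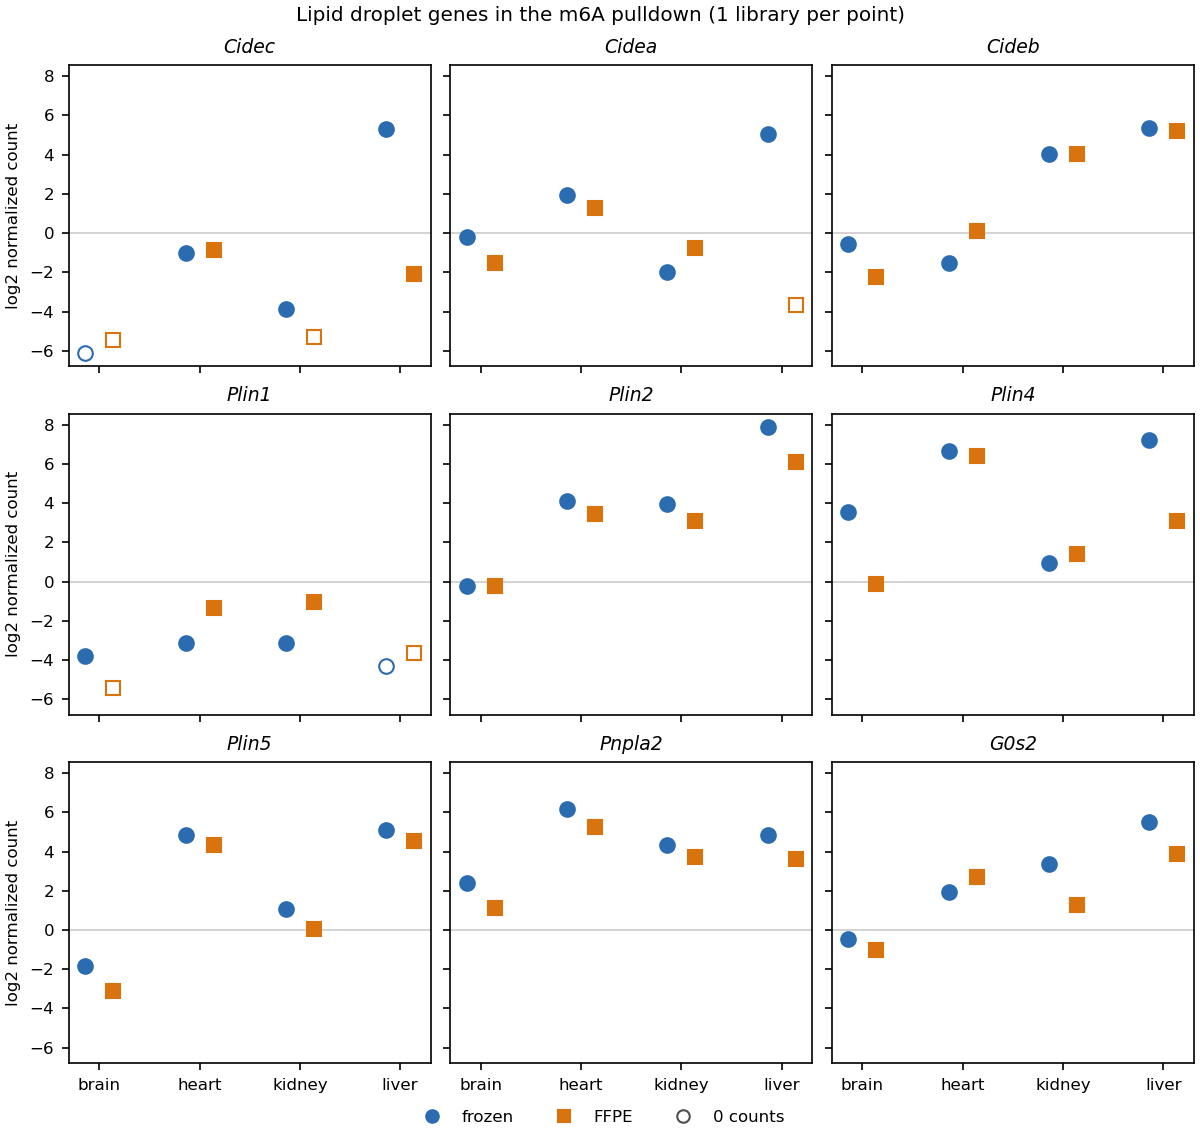
Level of each lipid droplet gene (log2 normalized count, vertical axis) in brain, heart, kidney and liver (horizontal axis), as blue circles for frozen and orange squares for FFPE tissue, with 1 library per point and open points at 0 counts. Cidec and Cidea stand at 5.31 and 5.07 in frozen liver and at 1 and 0 counts in FFPE liver, while Cideb lies at 5.38 and 5.23.

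The CIDE genes were not seen in the same libraries. Cidec and Cidea were highest in frozen liver, and Cideb was seen mainly in the liver and kidney libraries of both preservations. Cidec, which drives fusion of droplets and marks fat-laden liver, had 399 counts in frozen liver (log2 level 5.31) and 1 count in FFPE liver (-2.08). It had 6 counts in each heart library (-1.0 frozen, -0.84 FFPE), 1 and 0 counts in frozen and FFPE kidney, and 0 counts in both brain libraries, which allows up to 3 counts. So 1 library of 8 held almost all of its 413 counts. The frozen liver level was 252-fold the FFPE liver level, with a counting interval of 44.9 to 9971. In bulk tissue, fewer cells of a type and less RNA per cell cannot be told apart.

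Cidea, the CIDE gene best known from brown fat, had 336 counts in frozen liver (log2 level 5.07) and 0 in FFPE liver. Its frozen liver level was at least 70.7-fold the FFPE liver level, taken against a floor of 3 counts in the FFPE library. In the other organs it had 50 and 28 counts in frozen and FFPE heart (1.96 and 1.29), 29 and 7 in brain (-0.21 and -1.52) and 5 and 11 in kidney (-1.99 and -0.76). Outside liver the frozen and FFPE levels of Cidea thus lay within log2 1.30 of each other.

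Such a loss of counts was rare among liver genes. Of the 1037 genes with at least 399 counts in frozen liver, 1 had at most 1 count in FFPE liver, and it was Cidec. Of the 1278 genes with at least 336 counts there, 2 did, Cidea and Cidec. These numbers describe the choice of the set and support nothing further.

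Cideb, the CIDE protein of liver that helps load lipid onto lipoproteins, had 417 counts in frozen and 237 in FFPE liver, which gave log2 levels of 5.38 and 5.23. The 2 liver libraries differed by log2 -0.15, FFPE minus frozen, with an interval of -0.39 to 0.08. Its levels were 4.04 in frozen and 4.04 in FFPE kidney, -1.53 and 0.10 in heart, and -0.54 and -2.26 in brain. Both liver libraries lay above both kidney libraries, and heart and brain overlapped below them. Among the 3 CIDE genes, Cideb was thus the one with like levels in both liver libraries.

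The perilipins divided by organ. Plin1, the perilipin of fat cells, had 0 counts in both liver libraries, 2 and 9 in frozen and FFPE kidney, 1 and 4 in heart and 2 and 0 in brain, 18 in all. A level this close to 0 counts is not measured reliably in any of the libraries.

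Plin2, the coat protein found on droplets of most cells, had log2 levels of 7.86 in frozen and 6.10 in FFPE liver. It stood at 4.08 and 3.47 in frozen and FFPE heart, 3.97 and 3.11 in kidney, and -0.21 and -0.22 in brain. Liver was above every other library in both preservations, heart and kidney overlapped, and brain was lowest. The frozen liver level was 3.39-fold the FFPE liver level (3.06 to 3.77, from 2326 and 433 counts), and the ratio was 1.53 in heart (1.23 to 1.92), 1.81 in kidney (1.5 to 2.19) and 1.01 in brain (0.543 to 1.93).

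Plin4, a perilipin of muscle and fat, showed the widest spread between preservations of the tested perilipins. Its log2 levels were 7.22 in frozen and 3.08 in FFPE liver, and 3.55 in frozen and -0.14 in FFPE brain. They were 6.67 and 6.42 in frozen and FFPE heart, and 0.92 and 1.43 in kidney. The frozen level was 17.9-fold the FFPE level in liver (13.6 to 23.9, from 1499 and 53 counts) and 13.2-fold in brain (8.37 to 22.2, from 401 and 19 counts), but 1.19-fold in heart (1.09 to 1.29). In kidney FFPE was the higher library, with an interval of the log2 difference of -0.11 to 1.14. Liver and brain overlapped other organs because of this spread, and heart was the organ with the highest mean level.

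The coding gene Hdgfl2 overlaps Plin4 in RefSeq, and no source used here says whether reads were counted by strand. Hdgfl2 stood at log2 4.22 in frozen and 4.00 in FFPE liver, and at 4.30 and 3.78 in frozen and FFPE brain, so it did not follow Plin4. Beside the Plin4 values in brain, cardiomyocyte markers Myh6 and Tnnt2 had 124 and 37 counts in frozen and 117 and 43 in FFPE brain. Over the whole list, at 0 for no marker, the summed CPM was 147 and 237, of which Ryr2, called higher in brain, made 116 and 193. Ttr, a gene of the choroid plexus in brain, had 12435 counts in frozen and 427 in FFPE brain. The part of a difference in dissected tissue in the Plin4 values was not tested.

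Plin5, the perilipin that ties droplets to mitochondria in oxidative tissues, lies next to Plin4, and its frozen and FFPE levels lay closer together. Its log2 levels were 5.08 in frozen and 4.55 in FFPE liver, 4.84 and 4.31 in heart, -1.85 and -3.10 in brain and 1.09 and 0.07 in kidney. Liver and heart overlapped at the top, kidney came next and brain was lowest, in the same order in both preservations. The frozen level was 1.44-fold the FFPE level in liver (1.18 to 1.76) and 1.44-fold in heart (1.22 to 1.70).

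The lipase and its inhibitor were counted in every library. Pnpla2, the first lipase of fat breakdown, had log2 levels of 6.14 in frozen and 5.27 in FFPE heart, 4.83 and 3.63 in liver, 4.33 and 3.72 in kidney, and 2.39 and 1.14 in brain. Heart was highest in both preservations, liver and kidney overlapped, and brain was lowest. In each of the 4 organs the frozen library was the higher one and the counting interval of the ratio lay above 1, from 1.53-fold in kidney (1.31 to 1.79) to 2.39-fold in brain (1.73 to 3.37).

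G0s2, the protein that binds and blocks the Pnpla2 lipase, had log2 levels of 5.51 in frozen and 3.85 in FFPE liver, 3.36 and 1.25 in kidney, 1.96 and 2.72 in heart, and -0.48 and -1.03 in brain. Liver was highest, brain lowest, and heart and kidney overlapped. The frozen level was 4.36-fold the FFPE level in kidney (3.16 to 6.12, from 225 and 46 counts) and 3.18-fold in liver (2.53 to 4.02), while in heart FFPE was higher, with a frozen to FFPE ratio of 0.590 (0.404 to 0.854).

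Taking a difference of at least 2-fold between the single FFPE and frozen libraries of an organ as the call, with no test, more members were lower than higher in brain, kidney and liver and none was lower in heart. In FFPE brain, 5 of the 7 tested members were at least 2-fold lower (Cidea, Cideb, Plin4, Plin5 and Pnpla2) and 0 higher, beside 9.13% lower and 4.74% higher of 14864 genes. In FFPE heart, 0 were lower and 1 (Cideb, from 4 counts to 12) was higher, beside 18.2% lower and 6.06% higher. In FFPE kidney, 2 were lower (Plin5 and G0s2) and 1 higher (Cidea), beside 10.4% lower and 4.47% higher. In FFPE liver, the contrast on which the set was chosen, 5 were lower (Cidea, Plin2, Plin4, Pnpla2 and G0s2) and 0 higher, beside 16.8% lower and 10.7% higher.

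The median FFPE minus frozen difference of the 7 members was log2 -1.66 in liver, -1.25 in brain, -0.61 in kidney and -0.52 in heart. The median of all 14864 genes was -0.01, -0.08, 0.02 and 0.01 in the same organs. Several of the brain values rest on few counts, such as 9 and 2 for Plin5 and 23 and 4 for Cideb. When libraries were scaled by total gene counts instead, the median of all genes itself moved to log2 -0.67 in liver, 0.41 in brain, -0.61 in kidney and 0.36 in heart, and 2 members were at least 2-fold lower in brain and 4 in kidney.

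**Figure D2:**
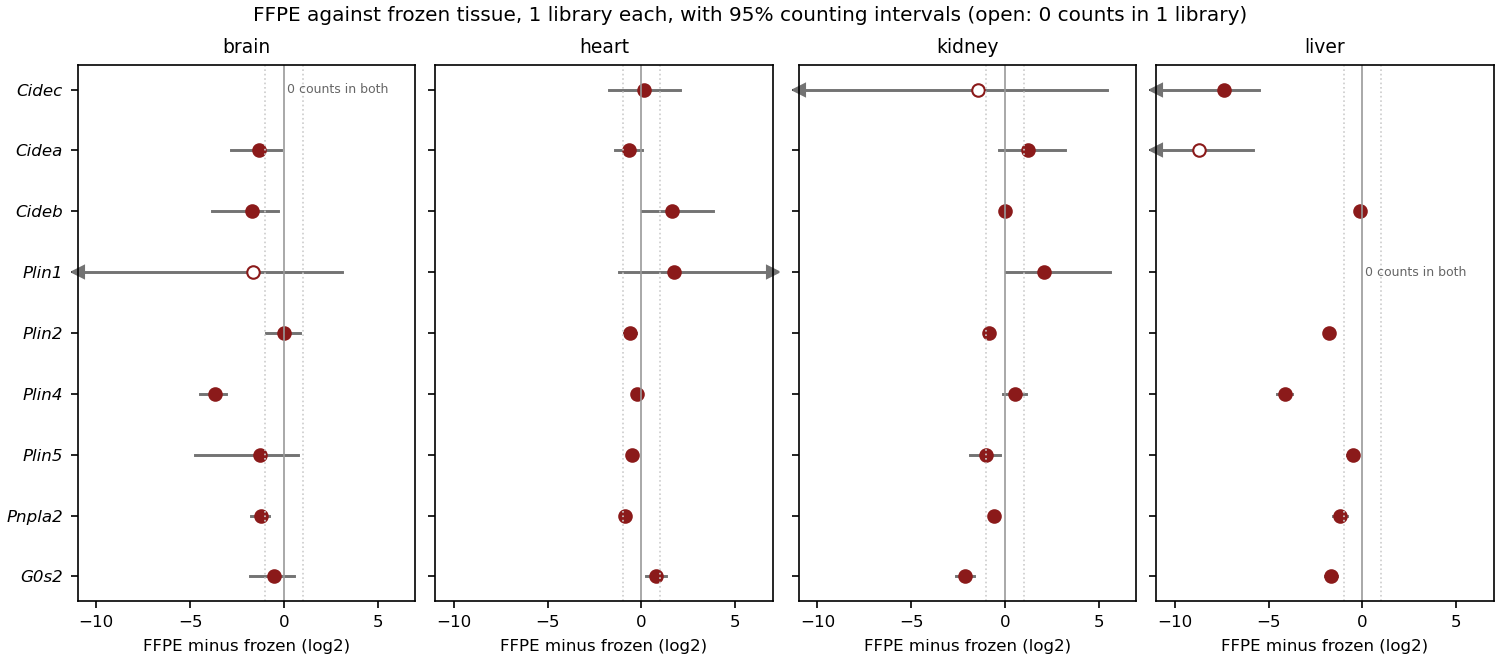
FFPE minus frozen difference of each member (log2, horizontal axis) in the 4 organs, with 1 library on each side, bars for the 95% counting interval, arrows where an interval runs past the axis, open points where 1 library had 0 counts and dotted lines at 2-fold. Cidec and Cidea lie furthest left in liver, and Plin4 lies at -4.14 in liver and -3.69 in brain but at -0.25 in heart.

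Whether preservation mattered beyond liver was tested over brain, heart and kidney, with organ as a term. The liver values of Cidec that led to the set are not in these 6 libraries. The members were still chosen with earlier results of these data known. No member passed: 0 of 7 were called higher or lower by limma at an adjusted p under 0.05, beside 0.00673% of all genes called higher (1 gene, Xist) and 0% called lower. All 7 fitted differences were below 0, with a median of log2 -0.64 against -0.06 over all 14864 genes, and 2 of the 7 had an unadjusted p under 0.05, as did 2325 of all genes. The fit compares 3 organs and leaves 2 residual degrees of freedom, and its p-values measure how alike the organs behaved, not the spread between animals.

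Pnpla2 had the smallest p of the members, at log2 -0.91 ± 0.17 (SE, 6 libraries), with an unadjusted p of 0.00107 and an adjusted p of 0.18 by limma. It was lower in FFPE tissue in 3 of 3 organs. With voom precision weights on the recovered counts, which called 181 genes higher and 120 lower, Pnpla2 was called lower at log2 -0.84 (limma adjusted p = 0.0343). Plin5 followed at -0.93 ± 0.37 (adjusted p = 0.304), also lower in 3 of 3 organs. Plin4 stood at -1.14 ± 0.70 (adjusted p = 0.449), a mean of unlike organs, since it was 0.13 without either brain library.

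The organs were compared with each other over all 8 libraries, each organ against the mean of the other 3 with preservation as a term (limma, 3 residual degrees of freedom). The 4 contrasts use the same libraries and are not independent of each other. Both liver libraries, on which the set was chosen, enter all of them, so the calls are not independent of that choice. Cidec and Plin1 are not in these fits.

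Brain was low in most of these genes, although kidney had the lowest mean level of Cidea and Plin4. In brain, 6 of the 7 tested members were called lower and 0 higher, beside 26.4% of all genes called lower and 30.2% higher. Plin5 was lower by log2 -5.80 ± 0.29 (SE, limma adjusted p = 2.74e-06), Plin2 by -4.98 ± 0.30 (5.22e-06) and Pnpla2 by -2.89 ± 0.18 (6.66e-06). Cideb and G0s2 were lower too, at -4.28 and -3.87. Plin4 was called at -2.58 ± 0.82 (adjusted p = 0.0253), but not without the FFPE brain library (-1.39, adjusted p = 0.356) or the FFPE heart library (-2.22, 0.0518), nor without the trend in eBayes (adjusted p = 0.0996). Cidea was not called (-1.18 ± 1.57, adjusted p = 0.546).

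Heart was high in the muscle perilipins and the lipase, but only Pnpla2 among these was above liver in both preservations. In heart, 3 members were called higher and 1 lower, beside 15.9% of all genes higher and 18.1% lower. Plin5 was higher by log2 3.60 ± 0.29 (limma adjusted p = 4.65e-05), Pnpla2 by 2.36 ± 0.18 (3.43e-05) and Plin4 by 3.87 ± 0.82 (0.0073). Plin4 was not called without the FFPE heart library (2.77, adjusted p = 0.139) or without the trend (0.055). Cideb was lower by -3.36 ± 0.54 (0.00172), and Plin2 (0.34 ± 0.30) and G0s2 (0.26 ± 0.50) were not called.

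Kidney shared Cideb with liver and had little of the muscle perilipins. In kidney, 1 member was called higher and 2 lower, beside 16.1% of all genes higher and 13.5% lower. Cideb was higher by log2 2.98 ± 0.54 (limma adjusted p = 0.00384), Plin4 was lower by -3.29 ± 0.82 (0.0173) and Plin5 by -1.72 ± 0.29 (0.00272). Each call was lost in some alternatives. Cideb kept its size but not its call without the frozen (3.02, adjusted p = 0.0531) or the FFPE kidney library (2.93, 0.0675). Plin5 was at -1.60 (0.0584) without the FFPE kidney library and -1.20 (0.0911) when scaled by total counts. Plin4 was at -1.69 (0.278) without the frozen kidney library, and without the trend its adjusted p was 0.0893.

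Liver was the highest organ for Cideb, Plin2 and G0s2 and overlapped heart for Plin5. In liver, 4 of 7 were called higher and 0 lower, beside 20.1% of all genes higher and 27.2% lower. Cideb was higher by log2 4.66 ± 0.54 (limma adjusted p = 0.000163), Plin2 by 4.61 ± 0.30 (7.71e-06), Plin5 by 3.92 ± 0.29 (1.56e-05) and G0s2 by 3.39 ± 0.50 (0.000657). Plin4 (2.01 ± 0.82, adjusted p = 0.0758), Pnpla2 (0.40 ± 0.18, 0.101) and Cidea (0.91 ± 1.57, 0.662) were not called. Plin4 was called with voom weights (2.51, limma adjusted p = 0.00764) and without frozen brain (0.0469), FFPE heart (0.0473), FFPE kidney (0.0182) or FFPE liver (0.0267), and Pnpla2 with median centring (0.57, 0.0251). For Cidea the call turned on which liver library was kept: without the FFPE liver library it was called higher in liver (5.15, adjusted p = 0.00208), and without the frozen one it was called lower (-3.33, 0.0269). With voom weights it was called higher in liver (3.79, limma adjusted p = 0.00805). Without FFPE liver it was also called lower in brain (-2.60, 0.00636) and kidney (-3.28, 0.0046), and without frozen liver higher in heart (3.55, 0.0064).

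**Figure D3:**
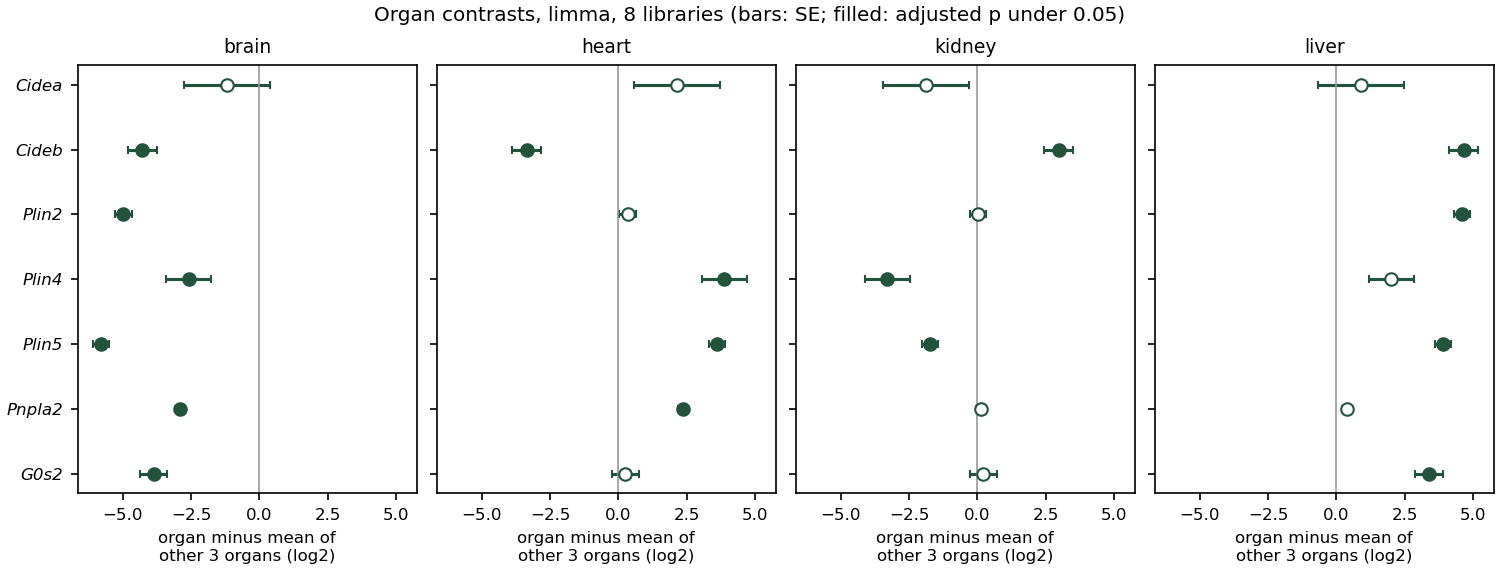
Difference of each organ from the mean of the other 3 organs (log2, horizontal axis) for the 7 tested members, from the limma fit over 8 libraries, with bars of 1 SE and filled points where the adjusted p was under 0.05. Brain is below 0 for all 7, heart is high in Plin4, Plin5 and Pnpla2, and liver is high in Cideb, Plin2, Plin5 and G0s2.

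The enzymes and other proteins of droplet life were taken as lists of named genes. In liver, 7 of the 11 genes of triacylglycerol synthesis were called higher and 0 lower by limma, beside 20.1% and 27.2% of all genes, among them Dgat2, which makes the final bond of triacylglycerol, and Gpam, which starts glycerolipid assembly. Of 10 genes of droplet formation and other coat proteins, 8 were called higher in liver and 0 lower, including Hsd17b13, a droplet enzyme of hepatocytes, and Fitm1 and Fitm2, which help droplets bud from the endoplasmic reticulum. In brain, 9 of the 11 synthesis genes and 6 of the 10 formation genes were called lower, with 0 and 1 higher, beside 26.4% of all genes lower and 30.2% higher. The median organ difference in liver was log2 1.56 for synthesis and 0.96 for formation, against 3.39 for the members and -0.18 for all genes.

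In FFPE against frozen liver, 3 of the 11 synthesis genes were at least 2-fold lower and 1 higher (Lpin1, from 436 to 722 counts), beside 16.8% and 10.7% of all genes, a share near that background, with a median FFPE minus frozen difference of log2 -0.28 beside -1.66 for the members. Dgat2 went from 960 to 571 counts, a difference of -0.09. Of the 8 other genes of lipolysis, 2 (Mgll and Aqp7) were at least 2-fold lower in FFPE liver. Only 1 (Pnpla3, from 4 to 11 counts) was at least 2-fold higher, and the list median was log2 -0.75. These shares too were near the 16.8% and 10.7% of all genes. By less than 2-fold, Lipe (-0.96) and Ces1d (-0.53) were lower and Hilpda (0.18) and Lipa (0.04) higher. Abhd5, the activator of the Pnpla2 lipase, had 96 and 30 counts in frozen and FFPE liver (-0.998). Plin3, a perilipin outside the chosen set, had 121 and 62 counts there (-0.30).

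Over brain, heart and kidney, 0 genes of the synthesis, lipolysis and formation lists were called by limma in FFPE against frozen tissue, with medians of log2 0.11, 0.10 and -0.05. Pnpla3, a paralog of Pnpla2 that insulin and sugar are known to induce, was at least 2-fold higher in FFPE tissue in all 4 organs, with 4 and 11 counts in frozen and FFPE liver, 83 and 121 in brain, 9 and 20 in kidney and 11 and 36 in heart.

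The regulators of droplet genes lay on both sides of their frozen level in FFPE liver. In liver, 6 of 8 were called higher than in the other organs, among them Pparg, Ppara and Cebpa, and 1 lower (Ppargc1a), beside 20.1% of all genes higher and 27.2% lower. In FFPE against frozen liver, Pparg, known to induce Cidec and Cidea in fat-laden liver, had 24 against 114 counts (log2 -1.56), and Ppara, the receptor of the fasting response, had 749 against 2407 (-1.02). Mlxipl, the sugar-sensing factor ChREBP, had 1224 against 626 counts (1.63), and Srebf1, the insulin-driven factor of fat synthesis, had 328 against 241 (1.11). Thus 2 of the 8 were at least 2-fold lower and 2 higher, beside 16.8% and 10.7% of all genes. The rest differed by less: Cebpa by -0.34, Creb3l3 by -0.17, Esrra by -0.13 and Ppargc1a by 0.41. Over brain, heart and kidney 0 regulators were called, with a median of log2 0.13.

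PPAR target genes outside the droplet were below their frozen level in most FFPE libraries. At least 2-fold lower in FFPE tissue were 9 of the 11 tested targets in kidney (10.4% of all genes), 8 in liver (16.8%), 8 in heart (18.2%) and 4 in brain (9.13%). Only 1 was higher, Vnn1 in brain, at 0 counts in frozen and 2 in FFPE tissue. Some of the lower ones also rest on few counts. In frozen and FFPE heart, Cyp4a10 and Cyp4a14 each had 2 and 0 counts and Vnn1 had 6 and 0. Frozen and FFPE brain had 7 and 0 counts of Cyp4a10 and 8 and 0 of Cyp4a14. Pdk4, which holds back sugar oxidation in fasting, went from 11434 counts in frozen to 974 in FFPE heart. Angptl4, a lipoprotein lipase inhibitor, went from 217 to 9 in heart. Neither was 2-fold lower in FFPE liver, where Pdk4 had 74 counts in frozen and 61 in FFPE tissue (log2 0.39). Angptl4 had 530 and 300 there (-0.16).

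Over brain, heart and kidney the 11 tested targets all had fitted differences below 0, with a median of log2 -1.56 against -0.06 over all genes. The list was chosen with earlier results of these data known. By limma 0 of the 11 were called, since the lowest adjusted p was 0.18, and 10 had an unadjusted p under 0.05. In liver, Cyp4a14, a fatty acid hydroxylase, had 6384 counts in frozen and 1006 in FFPE tissue. Fgf21, a fasting hormone made in liver, had 17 and 0 counts and did not pass the filter.

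**Figure D4:**
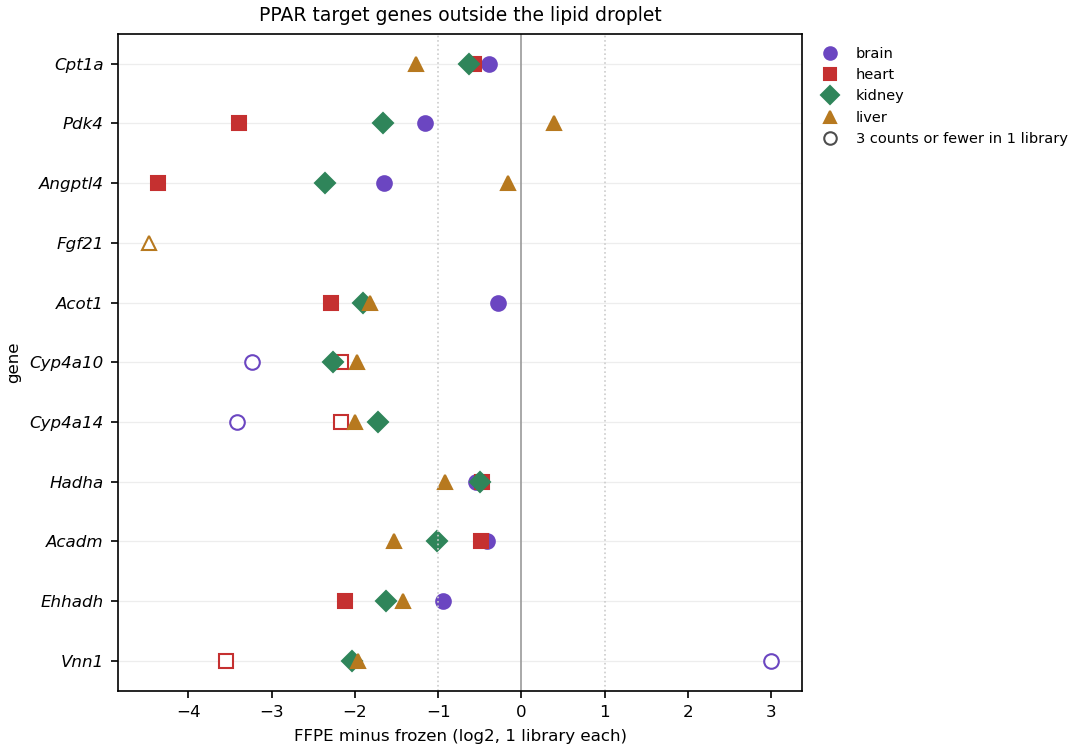
FFPE minus frozen difference (log2, horizontal axis, 1 library on each side) for 11 of the 12 listed PPAR target genes outside the droplet (rows), with a symbol per organ, open symbols where 1 library had 3 counts or fewer, no symbol where both had 0, and dotted lines at 2-fold. Most symbols lie left of 0, with Angptl4 at -4.36 and Pdk4 at -3.40 in heart.

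Cell type markers were set beside the liver values. Adipoq, the adipokine of fat cells, had 0 counts in each liver library, Lep had 1 and 0, Retn 3 and 0 and Cfd 10 and 0 in frozen and FFPE liver, and Ucp1 of brown fat had 3 and 0. Several other genes of the white adipocyte list were counted in frozen liver and had less in FFPE liver, as Cidec and Cidea did. Pparg had 114 and 24 counts, Fabp4 85 and 15, Lipe 69 and 22, Acvr1c 23 and 0 and Trarg1 7 and 0. Adrb3 of the same list went the other way, with 2 counts in frozen and 33 in FFPE liver. Over the whole list, 1 of 11 white adipocyte markers was at 0 in frozen and 6 of 11 in FFPE liver. Among those 6, Lep, Retn, Trarg1 and Cfd had 10 counts or fewer in frozen liver. FFPE liver was also the shallowest library outside ribosomal genes, and the share of all genes at 0 counts was not taken. Of the 7 tested markers of this list, which leave out Adrb3, 5 were at least 2-fold lower in FFPE liver and 0 higher. Beside them, 16.8% of all genes were lower and 10.7% higher. Most of the summed level of that list, a CPM of 1239 and 1045, came from Pck1, which hepatocytes also make.

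The hepatocyte list summed to a CPM of 29920 in frozen and 26560 in FFPE liver, with Alb at a difference of log2 -0.15, Cyp2e1 at -1.01 and Tat at 1.92. Stellate cell markers summed to a CPM of 56.2 and 57.6 and macrophage markers to 38.9 and 56.5. The shares of these cell types in the values of the members were not tested. Elovl3, placed on the brown adipocyte list but known in liver as a gene with higher levels in male mice, had 107 counts in frozen and 860 in FFPE liver.

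In kidney, markers of fat differed in both directions. Over the 7 tested white adipocyte markers, 1 was at least 2-fold higher in FFPE kidney (Cfd) and 1 lower (Pck1, from 18421 to 6161 counts, which the nephron also makes). The share of all genes was 4.47% higher and 10.4% lower, and the median of the 7 markers was log2 -0.63. Fabp4 had 357 and 177 counts in frozen and FFPE kidney, Lipe 139 and 80, Trarg1 33 and 17, Pparg 19 and 13 and Lep 6 and 0. Adipoq had 1 count in frozen and 10 in FFPE kidney, Cfd 2 and 50, Adrb3 2 and 11 and Ucp1 2 and 11, beside 2 and 9 counts of Plin1 and 5 and 11 of Cidea. In heart, Adipoq had 6 and 1 counts and Cfd 20 and 4 in frozen and FFPE tissue, where Plin1 had 1 and 4. The part of fat around the organs in the levels of Cidea and Plin1 was not tested.

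Genes that overlap members give a further view of the counts. The noncoding gene B430212C06Rik overlaps Cidea and had 23 counts in frozen and 0 in FFPE liver. Nop9, which overlaps Cideb, had 41 and 20 counts in liver (log2 2.05 and 1.69). Without a stated strand, reads of a gene and an overlapping partner cannot be told apart. No annotated gene overlaps Plin1, Plin5, Pnpla2 or G0s2.

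For each tested member the genes with the most similar profile over the 8 libraries were sought among 9231 genes by Pearson r of the log2 levels, as a description. All points share their libraries and scaling, and with 4 organs any gene of the same organs scores high. Cideb was closest to Gpx1 (r = 0.996), Prodh (0.995) and Grhpr (0.987), enzymes of liver and kidney. Plin2 was closest to Gstk1 (0.996), Stbd1 (0.987) and Acad11 (0.987), and G0s2 to Atad3a (0.976), Gstk1 (0.971) and Eci2 (0.970). Pnpla2 was closest to the mitochondrial genes Sdhb (0.991) and Atp5g3 (0.987) and to Lyz2 (0.989). Plin5 was closest to Colec11 (0.991), Ppfibp2 (0.989) and Dsg2 (0.987). Plin4 had no gene above 0.950 (Sun2, then Eif3e at 0.945 and Anxa6 at 0.944), and Cidea none above 0.939 (Eif2b5, then Thap12 at 0.910 and Nol8 at 0.909).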

How the data were processed

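Frozen and FFPE mouse organs gave the RNA, which an m6A antibody pulled down before sequencing. HISAT2, featureCounts and limma on mm10 are named per the submitters' processing notes, and their versions and settings are not given in the sources used here. The authors deposited log2 normalized counts, which from the values are log2 of CPM with 0.5 added to each count and a scaled library size. Turned back, 100% of values were whole counts within 0.001. A further 8 columns of another mark were not used.

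Genes above log2 0 in at least 2 libraries were tested (14864 of 27179) with limma (lmFit, eBayes with trend, Benjamini-Hochberg over all genes). Organs were tested over 8 libraries with preservation as a term, and FFPE against frozen over 6 libraries without liver, with organ as a term. Differences within an organ are single libraries with exact conditional counting intervals, called at 2-fold, and 0 counts were given a floor of 3 counts. These p-values do not measure the spread between animals. The fits were tested on simulated data.

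The members and lists were chosen with earlier results of these data known. Named genes are the 9 members, the listed pathway and marker genes, and for each tested member the 3 genes of highest r among those reaching log2 3 in a library. The counts of the PPAR target list include 1 gene that is not reported here. Symbols were matched to RefSeq (GRCm38.p6) for coordinates and promoters. One member on a chromosome whose sequence is not printed here was left out of the promoter search. Alternatives were other normalizations, filters, weights, added counts and leaving out each library. Tools were Python 3.11.15 (matplotlib 3.10.9, pandas 2.3.3, scipy 1.17.1, numpy 2.4.6) and R 4.3.3 (limma 3.58.1).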

Additional observations from a re-analysis of the deposited data

Results flagged for a closer look

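For 2 members the preservations differed in opposite directions between organs, with counting intervals on opposite sides of 0, and the difference between organs was not tested because each organ has 1 library of each kind. Cideb was lower in FFPE than in frozen brain by log2 -1.71 (interval -3.84 to -0.30, from 4 and 23 counts) and higher in FFPE than in frozen heart by 1.63 (0.02 to 3.83, from 12 and 4 counts). G0s2 was lower in FFPE kidney by -2.11 and in FFPE liver by -1.66, and higher in FFPE heart by 0.76 (0.23 to 1.31).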

How the results depend on the processing

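No paired analysis was possible because the columns carry no run number. Levels per length and transcript features were not run, since exon lengths and transcripts were not at hand. Median centring moved no count of called members by over 1.5 times. Of the counts of called members and the 2-fold counts of members and PPAR targets, 181 values under alternatives stayed within that range and 13 moved, and the cause was not tested. With total-count scaling, 2 members were at least 2-fold lower in FFPE brain, 4 lower and 0 higher in FFPE kidney and 2 higher in FFPE heart, and 1 member was called lower in kidney. Adding 2 counts left 1 lower in FFPE kidney. Without the trend, 1 member was called lower in kidney. With voom weights, 1 (Pnpla2) was called lower in FFPE tissue without liver. Leaving out libraries gave 0 to 1 members higher and 1 to 3 lower in kidney, and 0 to 1 lower in liver (1 without frozen liver).

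Uncalled differences changed sign in 30 cases. With total-count scaling, Cidea was at log2 0.04 in the brain and -0.30 in the liver contrast, Plin2 at -0.20 and G0s2 at -0.28 in heart, Pnpla2 at -0.80 in liver and Cideb at 0.05 in FFPE against frozen tissue without liver. Quantile normalization gave 0.04 for Cidea and 0.52 for Cideb in that last comparison, voom weights -0.04 for G0s2 in heart and median centring -0.05 for Plin2 in kidney. Over the fits that left out 1 library, Cidea ran from -2.60 to 0.23 in brain, from -4.26 to 0.53 in kidney and from -3.33 to 5.15 in liver, G0s2 from -0.84 to 1.36 in heart and from -0.59 to 1.03 in kidney, Plin2 from -0.18 to 0.24 and Pnpla2 from -0.13 to 0.37 in kidney. In FFPE against frozen tissue without liver, Cidea ran from -0.99 to 0.28, Cideb from -0.85 to 0.82, Plin4 from -1.97 to 0.13 and G0s2 from -1.33 to 0.10. Cidea without the frozen liver library was the 1 reversed value that was called.

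Over all genes, FFPE against frozen tissue without liver gave 1 call higher and 0 lower, 20 and 50 with total-count scaling, 181 and 120 with voom weights, and 55 and 61 without frozen heart. The all-gene calls in the organ contrasts also moved with total-count scaling. Genes called higher in brain went from 4491 to 8234 and those called lower from 3928 to 1558. For liver these numbers went from 2981 to 1143 and from 4042 to 8628. A few counts set the values of Plin1, of Cidec outside frozen liver, of Cidea in FFPE liver and of most members in brain. Frozen brain was the deepest library, with 8004550 counts outside ribosomal genes.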

Other observations

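Some genes near the members in function had fewer counts in FFPE than in frozen liver. Mogat1, a monoacylglycerol acyltransferase that PPARγ is known to induce in fatty liver, had 23 and 0 counts in frozen and FFPE liver and 211 and 94 in kidney. Aqp7, a channel for the glycerol that lipolysis releases, had 18 and 0 counts in liver and 186 and 136 in heart. Fitm1 had 140 and 17 counts in liver and 98 and 110 in heart. These 3 genes were picked after their values were seen.

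Hsd17b13 had 1536 counts in frozen and 432 in FFPE liver and at most 4 counts in each of the other 6 libraries.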
